A study of Mus musculus with 9 samples.

Results

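The BCL2 family is described here through 10 genes of cultured mouse cortical astrocytes, all 10 of which had a row among the 22100 genes of the deposited count table. They were picked by gene symbol, and the rule reads no measured value. The set was nevertheless drawn up with results of these data known, in which the fall of Bmf at 90 min was already among the largest. The 90 min difference of Bmf is therefore given as a description without a p-value, and the adjusted p-values of the other 9 genes describe these libraries and are not independent support for the choice.

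The 9 libraries were poly(A)-selected RNA from astrocytes grown from brain cortex in high-glucose DMEM with fetal bovine serum, in 3 groups of 3. One group was collected at 90 min of exposure to 50 µM noradrenaline. A second had the same exposure, then medium without the ligand, and was collected at 3 days. The third was unstimulated and its titles carry the 3 day time. No strain, sex or animal age was used here, and no label ties replicates to separate cultures or animals. The p-values thus reflect variation among the libraries at hand, possibly technical only. A control collected at 90 min was not analysed here, so treatment and collection time cannot be told apart at 90 min. The sources used here do not state if the medium of controls was also renewed, so that step and noradrenaline cannot be told apart at 3 days.

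BCL2 family proteins set whether the outer mitochondrial membrane stays intact. BAX and BAK1 form pores in it, BCL2, BCL-XL (gene Bcl2l1) and MCL1 hold them in check, and the BH3-only proteins release that check or activate the pore formers directly. Once pores open, cytochrome c leaves the mitochondrion and the caspases that dismantle the cell are activated. The BH3-only genes are known for control at the transcript level, and MCL1 for its short life as a protein and a transcript.

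The starts of the genes with the largest differences are shown because their transcripts moved in the same libraries. The sequences are RefSeq promoter windows on GRCm38.p6, an older build than the mm39 named by the submitters, and run from 250 bases before to 50 bases after an annotated start site. The windows are chr2:118549637-118549936 on the minus strand for Bmf (1 of its 3 windows), chr7:16309333-16309632 on the plus strand for Bbc3 (1 of its 3 windows) and chr3:95658471-95658770 on the plus strand for Mcl1. Capitals mark TGACG or CGTCA, the half-site of the cyclic AMP response element read on either strand.
Bmf: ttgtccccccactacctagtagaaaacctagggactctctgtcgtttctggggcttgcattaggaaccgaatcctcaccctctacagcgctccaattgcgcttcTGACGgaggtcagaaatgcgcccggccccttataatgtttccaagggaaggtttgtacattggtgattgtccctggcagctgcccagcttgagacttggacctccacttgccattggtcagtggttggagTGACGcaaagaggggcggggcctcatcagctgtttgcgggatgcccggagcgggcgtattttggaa
Bbc3: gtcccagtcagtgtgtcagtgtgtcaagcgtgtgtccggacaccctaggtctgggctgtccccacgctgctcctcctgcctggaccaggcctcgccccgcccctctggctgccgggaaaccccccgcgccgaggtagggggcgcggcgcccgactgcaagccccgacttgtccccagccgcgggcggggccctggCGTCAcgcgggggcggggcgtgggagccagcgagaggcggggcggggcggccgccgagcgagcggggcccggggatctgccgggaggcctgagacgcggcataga
Mcl1: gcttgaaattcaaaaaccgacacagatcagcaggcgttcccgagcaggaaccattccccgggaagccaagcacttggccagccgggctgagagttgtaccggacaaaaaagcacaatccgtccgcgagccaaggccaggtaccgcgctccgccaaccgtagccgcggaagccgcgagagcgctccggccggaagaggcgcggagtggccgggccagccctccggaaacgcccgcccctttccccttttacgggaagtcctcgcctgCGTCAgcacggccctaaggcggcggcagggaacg
The half-site lay at −146 and −16 in the Bmf window, at −55 in the Bbc3 window and at 16 in the Mcl1 window, counted to its first base with the start site as 0. It was in none of the other windows of Bmf and Bbc3, and it was in the single window of Bcl2, at −107, whose transcript was not called at 90 min. Of 32851 windows of that length in the table, 20.8% hold the half-site, so its presence is common. The full element TGACGTCA, which contains the half-site and is in 1.79% of all windows, was in none of the 16 windows searched. The AP-1 site TGANTCA, in 7.81% of all windows, was also in none of the 16. These windows came from the 9 members other than Pmaip1, which was left out of the search. The FOXO site GTAAACA, in 3.65% of all windows on either strand, was in 1 of 2 Bcl2l11 windows and 1 of 3 Bbc3 windows. A match to these letters describes the sequence and is not a binding site shown by these data.

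Per kilobase of the longest coding transcript in GENCODE M21, Bax had the highest level in controls (96.8 ± 2.32 CPM per kb, SD, n = 3, where CPM are counts scaled to library size), followed by Mcl1 (43.4 ± 1.36) and Bcl2l1 (37.4 ± 0.834). Bmf was the lowest of the 10 at 4.84 ± 0.300 CPM per kb and Pmaip1 next at 5.35 ± 0.538. These neighbours differed by less than the SD of Pmaip1, and with the median transcript length they changed places. Bax, Mcl1 and Bcl2l1 kept the first 3 places with either length. At 90 min Mcl1 was at 103 ± 1.56 and Bax at 100.1 ± 4.47 CPM per kb, a difference within the spread of Bax. With the median transcript length the values were 164.5 and 137.5 CPM per kb, so the size of the gap depends on the length used.

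**Figure D1:**
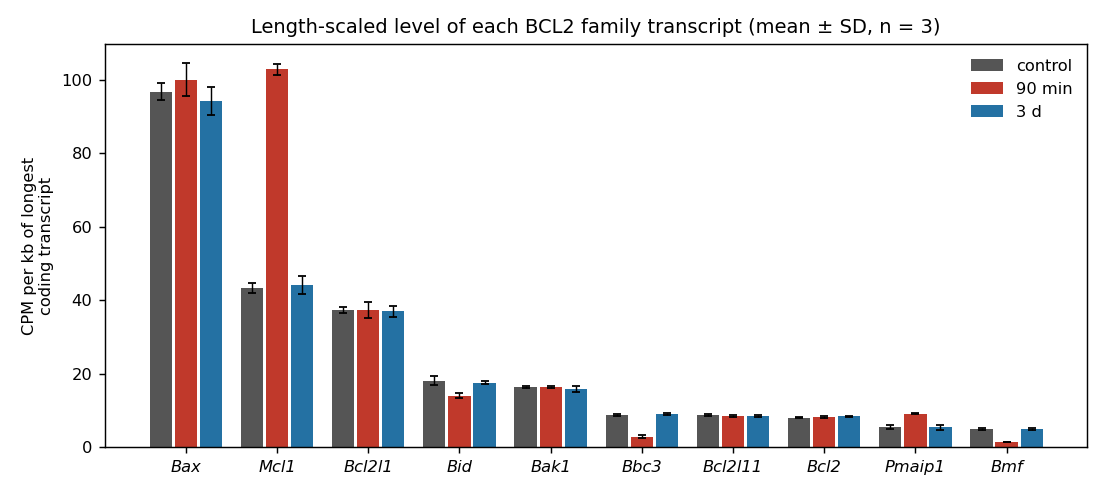
Bars show the mean level of each of the 10 transcripts in CPM (counts scaled to library size) per kilobase of its longest coding transcript, for control, 90 min and 3 day libraries, with SD over 3 libraries. The Mcl1 bar rises from 43.4 to 103 at 90 min, while the Bmf bar falls from 4.84 to 1.26.

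At 90 min of noradrenaline the family split by gene, with BH3-only transcripts moving both ways. Bmf and Bbc3 were 3.83-fold and 3.17-fold below control, Bid was modestly lower, and Pmaip1 and the survival gene Mcl1 were higher. All 10 members passed the count filter, and edgeR's quasi-likelihood test called 2 higher and 3 lower at an adjusted p below 0.05. Bmf, whose fall was known when the set was drawn up, is among the 3 lower, so these counts only describe. Over the 13090 genes tested, 33% were called in this comparison, 17.5% higher and 15.5% lower. The 90 min and control ranges of the 5 called members, Bmf included, did not overlap, which held for 43.5% of all genes. The median log2 fold change was 0.004 over the members and −0.001 over all genes. In bulk RNA, fewer cells of a type and less RNA per cell cannot be told apart.

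Bmf (Entrez 171543) codes for a BH3-only protein that is held on the myosin V motor through dynein light chain in healthy cells. It stood at 24.0, 22.1 and 21.3 CPM in control libraries 1 to 3 and at 5.87, 5.78 and 5.95 CPM in the 90 min libraries. The groups were far apart and the 90 min libraries nearly equal, with raw counts of 105, 104 and 99 against 445, 349 and 345. The fitted log2 fold change was −1.94 (SE 0.09, 95% interval −2.13 to −1.75). Leaving out single libraries moved it only between −1.98 and −1.89.

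Bbc3 (Entrez 170770) codes for PUMA, a BH3-only protein that binds all of the main survival proteins and is a classical target of p53. Its levels were 15.2, 16.0 and 16.1 CPM in controls and 5.82, 4.72 and 4.33 CPM at 90 min. No 90 min library came near the control range. The log2 fold change was −1.66 (SE 0.11, edgeR adjusted p = 5.36e-10).

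Bid (Entrez 12122), whose protein is cut by caspase-8 and links death receptors to mitochondria, went from 42.3, 37.5 and 38.6 CPM to 32.0, 30.5 and 29.5 CPM. The ranges did not overlap, but the step was the smallest of the 5 called (log2 fold change −0.37, SE 0.06, edgeR adjusted p = 0.00017). Bcl2l11 (Entrez 12125), the gene of the BH3-only protein BIM, was at 44.0, 42.2 and 44.8 CPM in controls and 43.7, 41.1 and 41.2 CPM at 90 min. These ranges overlapped, and the log2 value of −0.06 had a 95% interval of −0.17 to 0.06 (edgeR adjusted p = 0.478).

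Pmaip1 (Entrez 58801) codes for NOXA, a BH3-only protein that binds MCL1 in preference to other survival proteins. It moved against Bmf and Bbc3, from 13.9, 16.3 and 13.6 CPM in controls to 25.0, 24.2 and 25.0 CPM. Every 90 min library was above every control, and the log2 fold change was 0.76 (SE 0.09, edgeR adjusted p = 3.68e-06), a 1.69-fold level.

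Of the survival genes only Mcl1 (Entrez 17210) was called. It was at 149, 144 and 153 CPM in controls and at 358, 349 and 348 CPM at 90 min, so that the lowest treated library was above the highest control. The log2 fold change was 1.25 (SE 0.05, edgeR adjusted p = 1.5e-13), a 2.37-fold level. Bcl2 (Entrez 12043), the founding member, was at 57.8, 56.2 and 56.8 CPM in controls and 60.1, 57.2 and 56.1 CPM at 90 min. Bcl2l1 (Entrez 12048) was at 95.6, 94.2 and 98.4 CPM and then at 101.7, 90.4 and 95.5 CPM. Both overlapped with controls, with log2 values of 0.02 (95% interval −0.08 to 0.12, edgeR adjusted p = 0.771) for Bcl2 and −0.003 (−0.11 to 0.10, edgeR adjusted p = 0.975) for Bcl2l1.

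The pore-forming genes also overlapped with controls. Bax (Entrez 12028) was at 109, 107 and 104 CPM in controls and 112, 114 and 105 CPM at 90 min, with a log2 value of 0.05 (95% interval −0.05 to 0.15, edgeR adjusted p = 0.465). Bak1 (Entrez 12018) was at 37.9, 39.3 and 39.2 CPM and then at 38.9, 38.5 and 39.9 CPM (log2 0.01, 95% interval −0.11 to 0.13, edgeR adjusted p = 0.912).

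**Figure D2:**
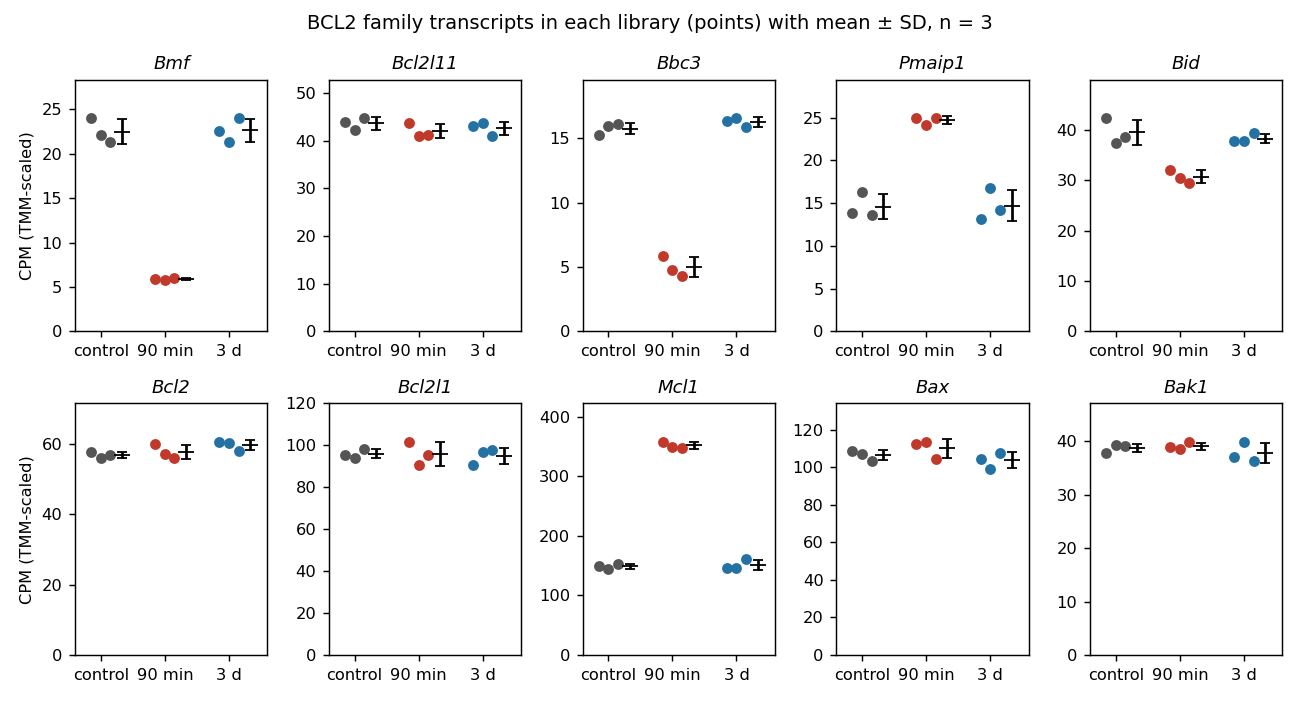
Each panel gives 1 gene in CPM after TMM scaling, with a point for each of the 9 libraries and the mean ± SD of 3 libraries beside them. Bmf, Bbc3 and Bid are lower and Pmaip1 and Mcl1 higher in all 3 of the 90 min libraries, and the 3 day points of these 5 genes overlap with the controls.

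At 3 days none of the 10 members was called by edgeR, and 0 had an unadjusted edgeR p under 0.05. DESeq2 also called 0, but gave no adjusted p for Bmf, Bbc3 and Pmaip1. Over all genes, 0.115% were called, and 1221 of 13090 had an unadjusted edgeR p under 0.05. The log2 values ran from −0.05 for Bid to 0.07 for Bcl2, with a median of −0.003 over the members and 0.001 over all genes. The smallest edgeR adjusted p was 0.712.

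The 5 genes that differed at 90 min had 3 day levels within or across the control range. Bmf was at 22.6, 21.4 and 24.0 CPM (log2 0.009 against control, 95% interval −0.15 to 0.17, edgeR adjusted p = 0.986). Bbc3 was at 16.4, 16.6 and 15.8 CPM (log2 0.05, 95% interval −0.14 to 0.24, edgeR adjusted p = 0.935). Those intervals leave out shifts of the size seen at 90 min. Mcl1 was at 145, 146 and 160 CPM, Pmaip1 at 13.2, 16.7 and 14.2 CPM and Bid at 37.7, 37.7 and 39.3 CPM, and all overlapped with their controls. Bcl2 was the single member whose ranges did not overlap, at 60.6, 60.4 and 57.9 CPM. Its lowest 3 day library was barely above its highest control, and ranges do not overlap for 16.1% of all genes in this comparison.

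Setting 3 days against 90 min asks which levels moved between the 2 collections, and it shares the 90 min libraries with the first comparison. Of the 10 members 3 were called higher, Bmf among them, and 2 lower. Over all genes 39% were called, 18.7% higher and 20.4% lower. Bmf was higher by a log2 value of 1.95 (SE 0.09), again without a p-value since its 90 min level was known. Bbc3 rose by 1.71 (SE 0.10, edgeR adjusted p = 3.17e-10) and Bid by 0.32 (SE 0.06, edgeR adjusted p = 0.000581). Mcl1 fell by 1.22 (SE 0.04, edgeR adjusted p = 1.84e-13) and Pmaip1 fell by 0.75 (SE 0.09, edgeR adjusted p = 3.53e-06). Bax, with a log2 value of −0.09 (edgeR adjusted p = 0.158), was called lower without 90 min library 3 (adjusted p = 0.0378).

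**Figure D3:**
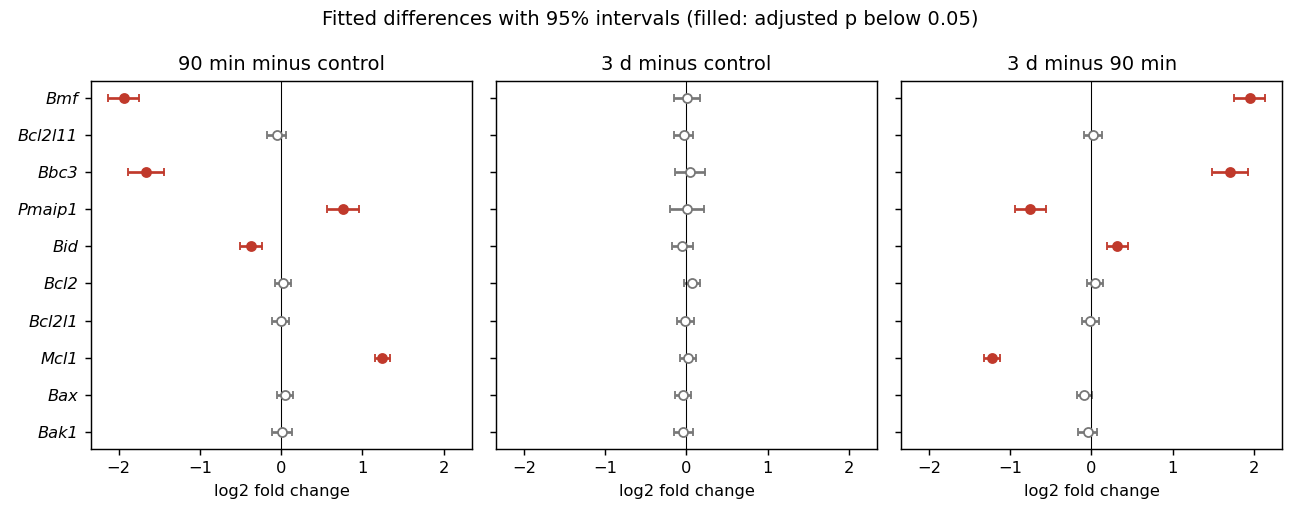
The 3 panels give the fitted log2 fold change of each member with its 95% interval for 90 min against control, 3 days against control and 3 days against 90 min. Filled points passed an adjusted p of 0.05 over all genes. In the middle panel all 10 intervals cross 0.

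The rest of the family was read from a list made by function. Of 28 family and BCL2-associated genes with a row, members included, 20 could be tested. At 90 min 9 were called (45%, against 33% of all genes), 5 higher and 4 lower, with Bmf among the 4. At 3 days 0 were called. The mitochondrial protein gene Bcl2l13 rose from 53.6 ± 1.91 to 69.0 ± 3.12 CPM (log2 0.36, edgeR adjusted p = 3.26e-05). Bclaf1 (log2 0.15, edgeR adjusted p = 0.0152) and the autophagy gene Becn1 (0.12, 0.0371) were higher by less. The mitophagy receptor gene Bnip3l was lower (log2 −0.17, edgeR adjusted p = 0.00596). Becn1 lost its call in other fits, among them those with adjusted p of 0.0866 with no filter, 0.0657 with only the 2 groups and 0.0736 with DESeq2, and without each control or 90 min library in turn (0.051 to 0.109). Bclaf1 lost its call without control 1 (0.0819), control 2 (0.0503) and 90 min library 3 (0.0527). Bad, a BH3-only gene, was at −0.003 and the survival gene Bcl2l2 at 0.09 (edgeR adjusted p = 0.976 and 0.201). Bik was at 0.668 CPM in unstimulated cells and at a log2 value of −1.04, which was not called (edgeR adjusted p = 0.0853). The BH3-only gene Hrk and the survival genes Bcl2a1a, Bcl2a1b, Bcl2a1c, Bcl2a1d and Bcl2l10 had at most 3 counts in any library and could not be tested.

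Genes for transcription factors that drive BH3-only genes were lower in 3 of 7 tested and higher in 1, where 15.5% and 17.5% of all genes were. FOXO factors are known activators of Bcl2l11 and Bbc3. Foxo1 fell from 58.5 ± 1.72 to 33.9 ± 1.34 CPM (log2 fold change −0.79, SE 0.06, edgeR adjusted p = 4.31e-09), and Foxo3 from 104.7 ± 2.36 to 64.3 ± 3.70 CPM (log2 fold change −0.70, SE 0.05, edgeR adjusted p = 6.24e-09). Foxo6 fell as well, from a control level of 2.64 CPM (−1.30), whereas Foxo4 was at −0.08 (edgeR adjusted p = 0.324). Jun rose (log2 0.69, edgeR adjusted p = 5.81e-08). The stress factor gene Ddit3 was at 0.07 and E2f1 at −0.04, and neither was called.

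The p53 list had 9 called members of 13 at 90 min, of which 4 were higher and 5 lower, against 33% of all genes called, with a median of −0.05. Trp53 itself fell from 109.7 ± 0.429 to 89.8 ± 3.89 CPM (log2 fold change −0.29, SE 0.05, edgeR adjusted p = 5.53e-05). The p53 targets moved in both directions. Trp53inp1 went from 152 ± 7.38 to 75.8 ± 1.96 CPM (log2 −1.01, edgeR adjusted p = 2.54e-11) and the stress-induced gene Sesn1 was lower (−0.84, 2.27e-10). The cell cycle inhibitor gene Cdkn1a was higher (0.47, 1.23e-07), as were Mdm2 (0.15, 0.00819), which codes for the ligase that degrades p53, and the death receptor gene Eda2r (0.26, 0.00826).

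Genes known to set MCL1 protein stability were called in 4 of 7, 1 higher and 3 lower, against 33% of all genes. Usp9x, the gene of a deubiquitinase that protects MCL1, rose from 429 ± 23.4 to 791 ± 37.8 CPM (log2 fold change 0.88, SE 0.05, edgeR adjusted p = 6.35e-11). Fbxw7, which codes for a subunit of a ligase that marks MCL1 for degradation, fell from 29.1 ± 1.63 to 20.2 ± 0.152 CPM (log2 fold change −0.52, SE 0.07, edgeR adjusted p = 7.12e-06). The kinase gene Gsk3b (−0.31, 0.00052) and the ligase gene Btrc (−0.14, 0.043) were also lower. Btrc was not called with DESeq2 (adjusted p = 0.0881), nor without control 1 or 2, 90 min library 2 or 3, or 3 day library 1 or 2 (0.0516 to 0.213). Huwe1, a further MCL1 ligase gene, was at 0.009 (edgeR adjusted p = 0.938). MCL1 protein was not measured.

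Among partners of these proteins 2 of 9 genes were higher and 0 lower, a share of 22.2% that is below the 33% of all genes. Vdac1, an outer membrane channel gene, rose from 233 ± 10.6 to 329 ± 7.15 CPM (log2 0.50, edgeR adjusted p = 2.69e-08), and Ywhaz, a 14-3-3 gene, was higher by 0.20 (0.000409). Dynll1 and Dynll2, the light chains that hold BIM and BMF, were at 0.03 and −0.02 and were not called.

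Downstream of the mitochondrion, 3 of 7 apoptosome genes were called at 90 min (42.9%, against 33% of all genes). Cycs (cytochrome c) rose from 42.3 ± 2.15 to 59.4 ± 3.25 CPM (log2 0.49, edgeR adjusted p = 5.89e-06) and Apaf1, its partner in the apoptosome, was higher (0.36, 0.0102), though not called without control 2 (0.0605). Casp9, the caspase that this complex activates, fell from 39.3 ± 1.31 to 27.0 ± 1.27 CPM (log2 fold change −0.54, SE 0.06, edgeR adjusted p = 1.43e-06). Among the other caspases Casp12 was lower (−0.18, 0.0228). Its call was lost without control 2 (0.101), control 3 (0.0646) and 90 min library 1 (0.114). Of 6 inhibitor of apoptosis genes Birc2 rose (0.40, 3.79e-05) and Xiap fell (−0.25, 0.00308). That is a called share of 33.3%, near the 33% of all genes. In the death receptor arm Traf2 (−0.24, 0.012), Fas (−0.24, 0.019) and Fadd (−0.22, 0.0453) were lower, 3 of 10, and 0 were higher, a share of 30% that is near the 33% of all genes. Fadd was not called with DESeq2 (adjusted p = 0.0802), nor without control 2 or 3, any one 90 min library or 3 day library 1 (0.0575 to 0.163). Fas was lost without control 1 (0.111), control 2 (0.0515), 90 min library 2 (0.0759) and 90 min library 3 (0.0589), and Traf2 without control 3 (0.0782) and 90 min library 1 (0.0609).

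Over all 92 listed genes 76 were tested at 90 min, 14 were higher and 19 lower, which is 43.4% against 33% of all genes. At 3 days 0 of the 76 were called by edgeR, and 0 by DESeq2 among those it gave an adjusted p. An unadjusted edgeR p under 0.05 was found for 8 of the 76 and for 1221 of all 13090 genes. Between 90 min and 3 days 20 of the 76 were higher and 16 lower, which is 47.4% against 39%.

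**Figure D4:**
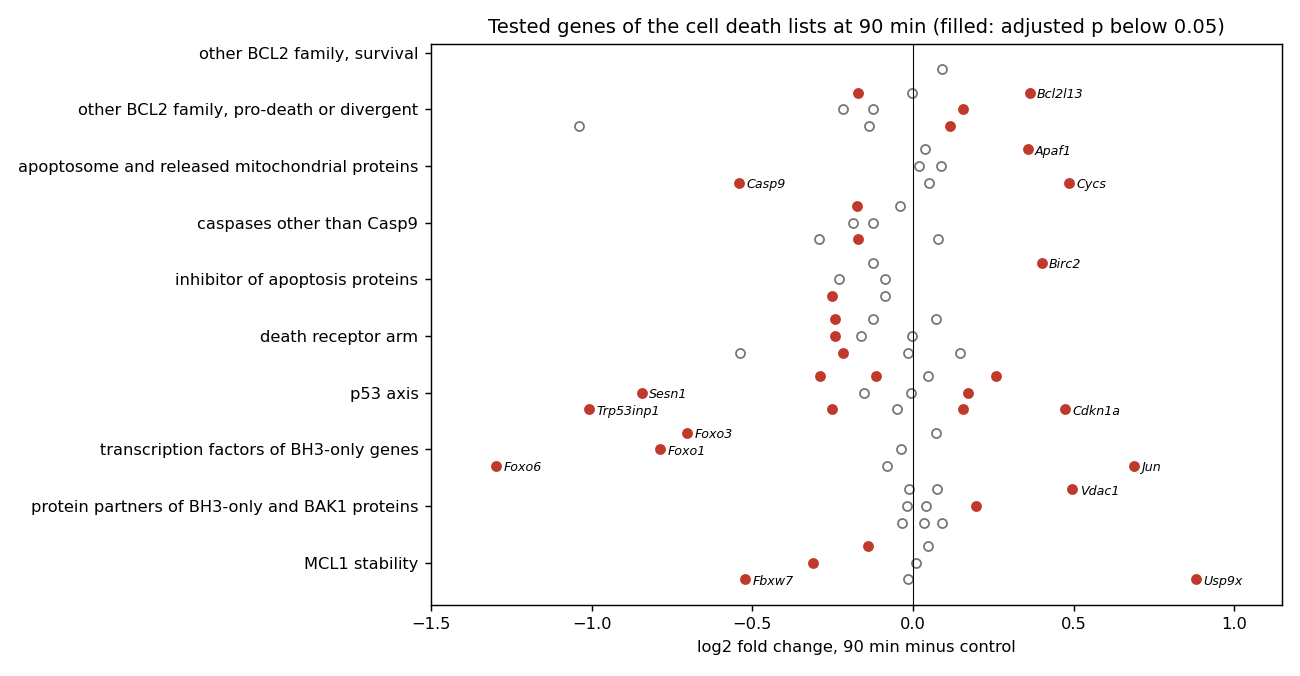
Each point is 1 tested gene of a cell death list at its log2 fold change of 90 min against control, filled where the adjusted p over all genes was below 0.05, and named where a called change reached 0.35. Among the filled points Foxo6, Trp53inp1, Sesn1, Foxo1 and Foxo3 lie farthest to the left and Usp9x farthest to the right, and the open point at −1.04 is Bik.

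The genes whose levels most resembled those of Bmf over the 9 libraries were Fgf9, Amotl2, Gadd45a, Slc8b1 and Rhou, with Pearson r of log2 CPM between 0.997 and 0.998 among 11589 candidates. The libraries form a 90 min cluster and the rest, so such an r mainly records that a gene is lower in the 90 min libraries alone. The size of the drop differed. Gadd45a, a growth arrest gene that p53 can induce, went from 84.8 ± 0.395 to 26.3 ± 1.76 CPM and was at 81.7 ± 2.54 CPM at 3 days, whereas Rhou went from 79.7 ± 1.08 to 49.3 ± 0.822 and 79.3 ± 2.43 CPM.

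Total counts were 15529158 to 18729980 per library, and 3 counts corresponded to 0.158 to 0.190 CPM. All 10 astrocyte markers listed passed the filter and their summed level was 709 to 739 CPM in controls and 682 to 713 CPM at 90 min. Within that sum 2 were called higher and 5 lower, with Slc1a3 going from 131 to 188 CPM, Gja1 from 55.5 to 105.7 CPM and Sox9 from 248 to 141 CPM. Gfap was at 1.13 ± 0.293 CPM in controls. Fibroblast and meningeal markers summed to 4994 to 5771 CPM in controls and 5051 to 6414 CPM at 90 min, with all 7 tested. Of these 1 was called higher and 0 lower. Most of the sum was Fn1, at 2895 and 3422 CPM, and Col1a1, the other way at 1419 and 1317 CPM. Pericyte and smooth muscle markers summed to 732 to 741 CPM in controls and 500 to 566 CPM at 90 min, with 4 of 7 tested and 1 called lower. That gene, Pdgfrb, went from 390 to 199.5 CPM, while Acta2 was at 179 and 175 and Tagln at 165 and 159 CPM. The part of these and the following markers in the results was not tested. Oligodendrocyte lineage markers summed to 29.2 to 31.0 CPM in controls and 39.2 to 40.1 CPM at 90 min, with 1 called higher, 1 lower and Olig1 and Olig2 at 0 in every library. Mbp was at 16.0 and 28.0 CPM, while Cspg4 went the other way at 4.28 and 2.95 CPM and Pdgfra was at 7.08 and 5.97 CPM. Endothelial markers summed to 49.5 to 54.9 and 43.8 to 45.9 CPM, with Tek at 38.8 and 24.6 CPM, Flt1 the other way at 13.9 and 20.1 CPM, and Cldn5 at 0. Neuron markers summed to 138 to 139 CPM in controls and 138 to 156 CPM at 90 min, almost all of it Map2. Of the 10 microglia markers listed 2 passed the filter, and P2ry12, C1qa and C1qb were at 0 in every library. RefSeq places other genes over Bcl2l11 (Acoxl), Bcl2l1 (Cox4i2), Bak1 (Ggnbp1), Bid (a pseudogene) and Bcl2 (a microRNA and a long non-coding RNA). The sources used here do not say if counting used strand, and only whole gene spans were compared, not exons. Whether reads of such neighbours entered the counts of these genes was not tested.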

How the data were processed

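The authors deposited estimated counts per gene for 9 libraries, whole numbers with an Entrez identifier and symbol for 22100 rows. The submitters' processing notes name Salmon 1.8.0, fastp 0.23.4 and the mm39 build. The step from transcripts to genes is not stated there. Titles gave the groups and replicate numbers. Rounding the counts changed 0 values. 1 row without a symbol was kept.

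In R 4.3.3 with edgeR 4.0.16, filterByExpr (minimum count 10, minimum total 15) left 13090 genes, scaled with TMM. All 9 libraries entered one quasi-likelihood fit with a coefficient per group. Tests were two-sided, p-values were adjusted (Benjamini-Hochberg) over all tested genes, and a gene was called below 0.05. Standard errors (SE) are the log2 fold change divided by the square root of F, and 95% intervals use its t distribution. CPM are TMM-scaled. The fit was tested on simulated data. Alternatives were RLE factors, other filters, DESeq2 1.42.0, fits of 2 groups, a replicate block and leaving out each library. Chi-square values of replicate pairs were 2.37 to 6.89 per degree of freedom, so no replicates matched within sampling noise.

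The members and lists were chosen with earlier results of these data known. Named list genes are, per list and comparison, up to 3 called genes with the smallest p in each direction. Others are named to give values of genes that were not called or not tested. Genes most like Bmf had a mean log2 CPM of at least 1, without predicted genes. Promoter windows were searched for 9 of the 10 members. Pmaip1 was left out of that search, so the statements on motifs do not cover it. The values of some listed genes are not reported here.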

Additional observations from a re-analysis of the deposited data

Results flagged for a closer look

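Effects at 90 min and at 3 days were both set against the same controls. They differed for 5 of the 10 members by the test of 3 days against 90 min, which called 39% of all genes. The 5 include Bmf, whose 90 min level was known beforehand. Their values repeat those given above. The effect at 3 days minus that at 90 min was 1.95 for Bmf on the log2 scale. It was 1.71 for Bbc3 and 0.32 for Bid. It was −1.22 for Mcl1 and −0.75 for Pmaip1. With 3 libraries a group, no single library could be tested as standing apart.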

How the results depend on the processing

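Under all 15 alternatives the same direction and call held for Bmf, Bbc3, Bid, Pmaip1 and Mcl1 at 90 min and between the times. The fall of Bmf at 90 min was known when the set was drawn up, so its calls only describe these libraries. No member was called at 3 days under any alternative that gave it an adjusted p, and DESeq2 gave none for Bmf, Bbc3 and Pmaip1 there. The replicate number as a block gave 5, 0 and 5 called members for 90 min, 3 days and 3 days against 90 min, and changed the call of no member. Same-numbered libraries did not deviate together (r −0.148 to 0.049 over 9 pairs), so the numbers were not taken as pairs. With the block 29, 0 and 30 list genes were called, against 33, 0 and 36, and Becn1, Btrc and Fadd were not called at 90 min (adjusted p = 0.063, 0.0551 and 0.066).

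Without any filter 2 list genes were called at 3 days, Birc5 (log2 −0.44, adjusted p = 0.0243) and Mdm4 (0.22, 0.00229). Leaving out single libraries gave 5 to 6 called members between the times and 26 to 33 list genes at 90 min. All genes called at 3 days numbered 15, 205 with no filter, 76 with only the 2 groups, 68 with DESeq2, 3 with the block and 0 to 83 without single libraries.

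Signs turned only for values near 0 that were not called, and only when a single library was left out. At 90 min the log2 value ranged from −0.007 to 0.043 for Bcl2, −0.047 to 0.039 for Bcl2l1 and −0.006 to 0.021 for Bak1. At 3 days it ranged from −0.035 to 0.060 for Bmf, −0.093 to 0.094 for Pmaip1, −0.084 to 0.005 for Bid, −0.028 to 0.045 for Mcl1 and −0.035 to 0.017 for Bcl2l1. Between the times it ranged from −0.054 to 0.032 for Bcl2l1. The cause was not tested.

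Of the 5 genes most like Bmf by Pearson's r, 0 were among the first 5 by Spearman's rho. Named list genes that lost a call with at least 1 library left out at 90 min were Aen, Apaf1, Bclaf1, Becn1, Btrc, Casp12, Fadd, Fas and Traf2.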
